A study of Mus musculus with 8 samples.

Results

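The genes described here encode the receptors and ligands that guide growing axons and migrating cells: the Eph receptors and their ephrins, the semaphorins with their plexin and neuropilin receptors, the Slits with their Robo receptors, and the Unc5 receptors for netrins. They were taken by symbol (Epha, Ephb, Efna, Efnb, Sema, Plxna to Plxnd, Nrp1, Nrp2, Robo, Slit and Unc5 genes). No measured value enters this rule, but the set was chosen with earlier results of these data known. The genes number 67 of the 23523 genes and unnamed transcripts in the deposited data. RNA sequencing compared 5 mouse glioblastomas with 3 normal mouse brains. The tumours were raised with a lentiviral vector for HrasG12V and an shRNA directed at p53. The tumours were taken at the clinical endpoint, and GFP-positive tissue was freed of normal brain under a dissecting microscope. The normal brains carry the label normal mouse brain and nothing more. The sources used here do not give the strain, age, sex, brain region, promoter of the vector or cells it entered. The labels do not tell whether each sample is an animal of its own, so p-values measure the spread between these samples, which may be technical.

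Guidance receptors are read out as attraction, repulsion or adhesion. Eph receptors are receptor tyrosine kinases that bind ephrins on a neighbouring cell, and both cells can signal. Class 3 semaphorins are secreted and bind a neuropilin that is paired with a plexin, whereas most semaphorins of classes 4 to 7 are anchored in the membrane and bind plexins directly. Slits repel axons and migrating neurons through Robo receptors, and Unc5 proteins turn the response to netrin into repulsion. In the adult brain many of these genes stay on in neurons and glia, where they act at synapses, and several act in blood vessels.

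Of the 67 guidance genes, 65 passed the filter on low counts and were tested with edgeR. Of these, 13 were higher in glioblastoma than in normal brain (20%) and 33 were lower (50.8%) at a Benjamini-Hochberg adjusted p below 0.05 over all 14641 genes tested, whereas 19 were not called. Over all genes tested 37.1% were called higher and 33.9% lower, 71% in either direction. All 33 lower members were at least 2-fold lower, as were 25.8% of all genes, and 11 of the 13 higher members were at least 2-fold higher, as were 27.4% of all genes. The median log2 fold change was -1.2 for the members and 0.06 for all genes. For 46 members every glioblastoma lay outside the range of the brains, which held for 70.6% of all genes. Among 31 ligands 6 were higher, 13 lower and 12 not called, and among 32 tested receptors 5 were higher, 20 lower and 7 not called. Plxna4os1, an antisense RNA, and Unc50 and Unc5cl, which are no netrin receptors, matched by symbol alone and are left out of those ligand and receptor counts.

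**Figure D1:**
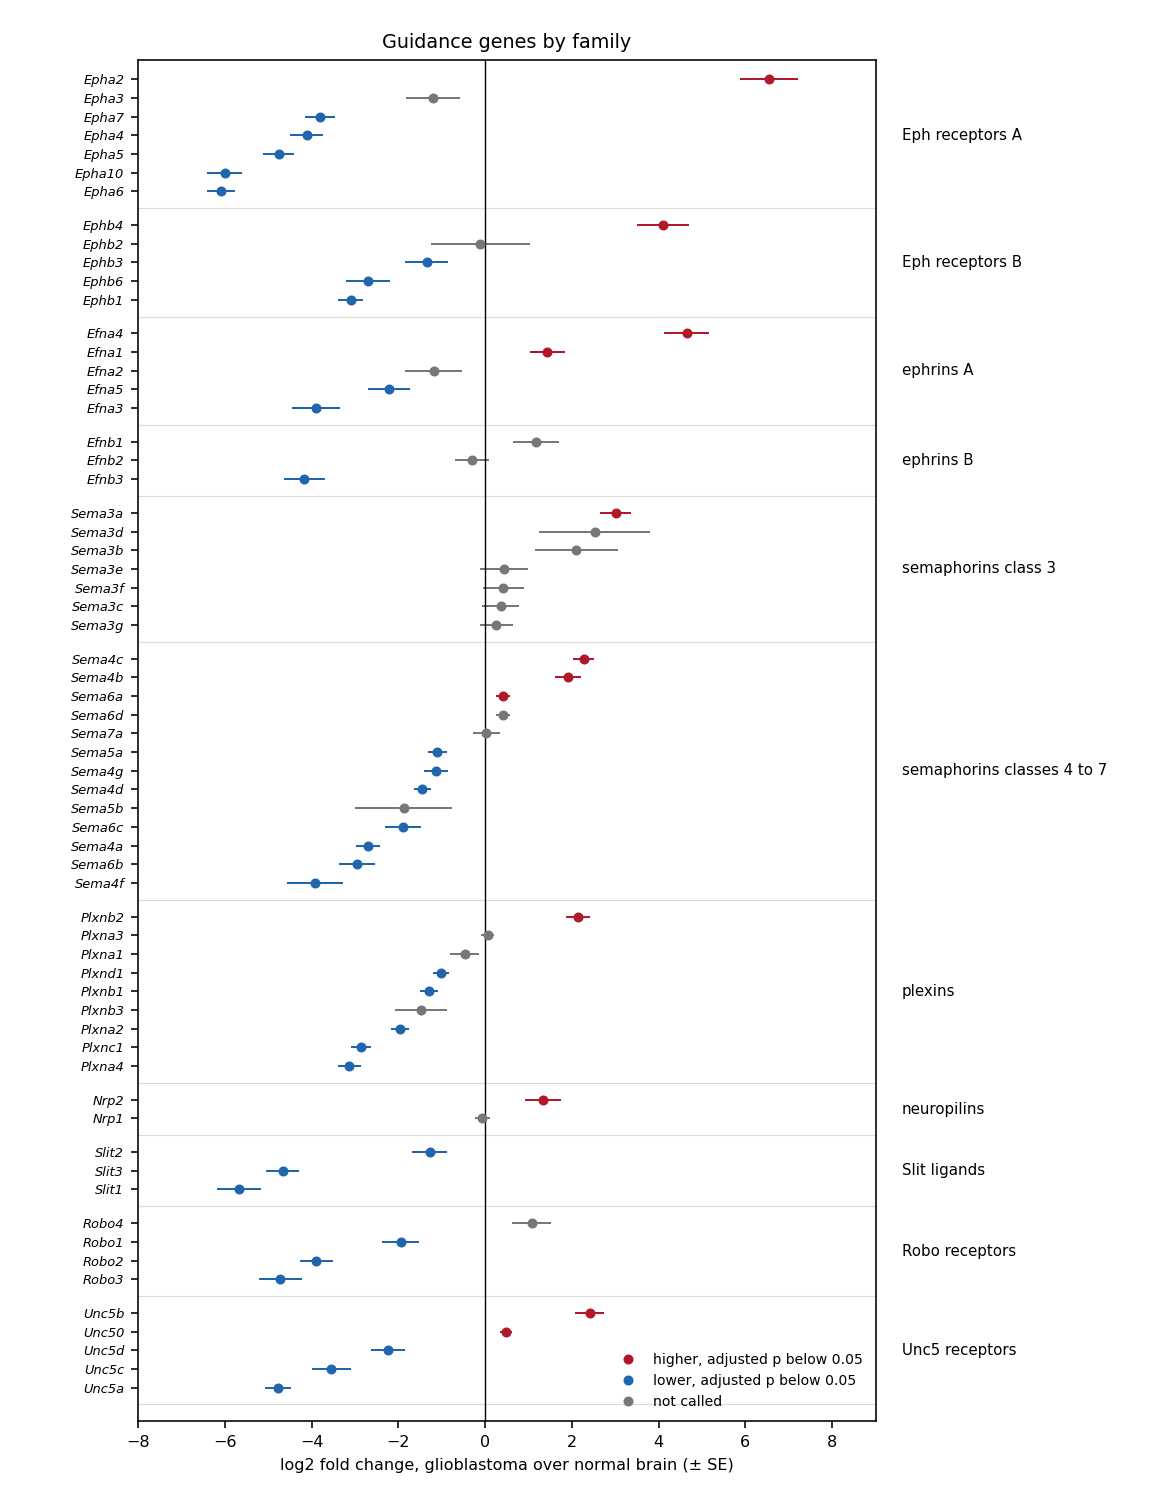
Log2 fold change (glioblastoma over normal brain, points) with its standard error (bars) for 63 tested members, grouped by family and ordered within it. Red points are called higher, blue points lower and grey points neither; Epha8 and Plxna4os1, with at most 3 fragments in one group, are not drawn. In several families 1 or 2 members lie to the right while the others lie to the left, as Epha2 (6.54) does against Epha6 (-6.09).

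Library totals ranged from 5490351 to 15564280 fragments. Levels per library are given as CPM (fragment counts scaled to the library size with TMM factors), in the order of the library numbers (glioblastomas 1 to 5, brains 1 to 3), and levels of different genes are compared only as FPKM, the deposited values per transcript length. The tissues also differed in markers of other cells. Summed neuron markers (7 genes) lay at 246 to 906 CPM in glioblastomas and 6637 to 7761 CPM in brains, and 5 of the 7 fell. Myelinating oligodendrocyte markers (7 genes) lay at 240.0 to 842 CPM in glioblastomas and 3100.0 to 6025 CPM in brains, with 7 of 7 lower. Astrocyte markers (6 genes) lay at 807 to 1689 CPM in glioblastomas and 4863 to 5210.0 CPM in brains, with 4 lower. Macrophage and monocyte markers (6 genes) lay at 893 to 2365 CPM in glioblastomas and 13.2 to 29.4 CPM in brains, with 6 of 6 higher. Endothelial markers (6 genes) lay at 151.5 to 376 CPM in glioblastomas and 81.8 to 95.1 CPM in brains, with 5 higher. Pericyte and smooth muscle markers (5 genes) had 3 higher and 1 lower member, microglia markers (6 genes) 3 higher and 2 lower, and 4 of 4 neutrophil and 4 of 4 cell division markers were higher. No defining marker was at 0 in all glioblastomas, while 1 of 4 neutrophil markers and 3 of 4 T and NK cell markers were at 0 in all brains. In bulk tissue, fewer cells of a type and less RNA per cell cannot be told apart, and the part of these cell mixtures in the results below was not tested.

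Among the A-type Eph receptors, which mostly bind ephrins anchored by a lipid, 6 of 8 tested members were lower in glioblastoma and 1, Epha2, was higher. Epha2, a receptor of epithelia that is scarce in adult brain, stood at 34.6, 97.4, 71.2, 27.4 and 101 CPM in the glioblastomas, against 0.846, 0.433 and 0.818 CPM in the brains. The lowest glioblastoma exceeded the highest brain, and the log2 fold change was 6.54 ± 0.67 (SE, adjusted p = 4.1e-05). Epha4, which binds ephrins of both types and was the most abundant Eph receptor per length in brain, stood at 42.5, 39.5, 14.2, 56.8 and 27.6 CPM in the glioblastomas, against 732, 671 and 486 CPM in the brains. It was lower in all 5 glioblastomas, with a log2 fold change of -4.12 ± 0.39 (adjusted p = 2.72e-05). Epha6 stood at 2.17, 2.35, 1.64, 3.61 and 1.21 CPM in the glioblastomas, against 139, 179.5 and 139 CPM in the brains, a log2 fold change of -6.09 ± 0.32 (adjusted p = 1.34e-06). Epha10, a family member without kinase activity, stood at 0.62, 0.541, 1.13, 0.175 and 0.646 CPM in the glioblastomas, against 36.9, 36.6 and 42.8 CPM in the brains, a log2 fold change of -6.01 ± 0.41. In both genes the groups were far apart compared with the spread within them. Epha5 and Epha7, which are known from the mapping of axons onto their targets, had log2 fold changes of -4.76 ± 0.36 and -3.81 ± 0.35. Epha8 had 0 fragments in the glioblastomas and 51 in the brains, at least 41.7-fold lower when the group is set to the limit of 3 fragments in all. Epha3 averaged 10.2 ± 7.51 CPM in glioblastomas and 23.4 ± 3.48 CPM in brains and was not called (log2 fold change -1.20 ± 0.62, adjusted p = 0.112), and glioblastoma 3 at 21.1 CPM lay within the range of the brains. Epha1, at 0.717 ± 0.501 CPM in glioblastomas and 0.206 ± 0.114 CPM in brains, did not pass the filter. Epha8 and Epha10 passed it only through the brains and Epha2 only through the glioblastomas.

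The B-type Eph receptors, which mostly bind transmembrane ephrins, had 1 higher and 3 lower members of 5. Ephb4, the partner of ephrin B2 in the separation of arteries from veins, stood at 35.7, 65.0, 79.8, 14.4 and 66.9 CPM in the glioblastomas, against 3.04, 3.03 and 3.00 CPM in the brains. Its log2 fold change was 4.10 ± 0.60 (adjusted p = 0.000297), with glioblastoma 4 the lowest of the tumours and still above every brain. Ephb6, another member without kinase activity and the most abundant B-type receptor in brain, stood at 18.5, 7.4, 6.93, 36.6 and 16.1 CPM in the glioblastomas, against 146, 99.8 and 92.7 CPM in the brains (log2 fold change -2.70 ± 0.50, adjusted p = 0.00129). Ephb1, known from the routing of retinal axons at the optic chiasm, stood at 3.88, 2.35, 2.14, 4.83 and 2.99 CPM in the glioblastomas, against 35.4, 23.5 and 25.8 CPM in the brains (log2 fold change -3.10 ± 0.29, adjusted p = 2.43e-05). Both were lower in every glioblastoma than in any brain. Ephb3 was called lower at -1.35 ± 0.50 (adjusted p = 0.0369), but its groups overlapped, with 1.62 to 8.33 CPM in glioblastomas and 7.36 to 17.9 CPM in brains, and it missed the threshold without glioblastoma 1, glioblastoma 3, brain 1 or brain 2 (adjusted p = 0.0612, 0.0678, 0.149 and 0.0879). It also missed it with all libraries under upper quartile factors (0.0565) and library size alone (0.0684). The same held in the fit of single transcripts (0.0793), where its 1 transcript holds the same fragments as the gene. Ephb2 was not called (log2 fold change -0.11 ± 1.15, adjusted p = 0.936): it stood at 21.9, 2.53, 1.76, 87.6 and 3.64 CPM in the glioblastomas, against 31.0, 24.7 and 21.7 CPM in the brains. Glioblastoma 4 was above the brains, glioblastoma 1 within their range, and the other 3 far below them.

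The stretches of 250 bases before the annotated start of 2 receptors that were higher and 2 that were lower in glioblastoma are shown because Epha2 and Ephb4 were the higher Eph receptors, Epha4 the most abundant one in brain and Epha6 the one with the steepest fitted fall among those named by rule. They come from RefSeq on GRCm38.p6, and are written along the strand of the gene, with capitals that mark the GC box (GGGCGG or its complement CCGCCC) and the cyclic AMP response element (TGACGTCA). Epha2 lies on chr4:141300971-141301220 (plus strand), Ephb4 on chr5:137349859-137350108 (plus strand), Epha4 on chr1:77515089-77515338 (minus strand) and Epha6 on chr16:60605532-60605781 (minus strand).
Epha2: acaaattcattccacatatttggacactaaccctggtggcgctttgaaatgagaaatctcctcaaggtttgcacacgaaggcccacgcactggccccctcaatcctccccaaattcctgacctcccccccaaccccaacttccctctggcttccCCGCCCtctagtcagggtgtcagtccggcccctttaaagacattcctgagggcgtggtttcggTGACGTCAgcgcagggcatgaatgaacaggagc
Ephb4: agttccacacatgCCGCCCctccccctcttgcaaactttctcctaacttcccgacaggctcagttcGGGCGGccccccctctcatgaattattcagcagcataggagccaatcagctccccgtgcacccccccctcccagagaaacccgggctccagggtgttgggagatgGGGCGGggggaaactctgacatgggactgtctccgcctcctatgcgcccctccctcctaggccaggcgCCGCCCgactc
Epha4: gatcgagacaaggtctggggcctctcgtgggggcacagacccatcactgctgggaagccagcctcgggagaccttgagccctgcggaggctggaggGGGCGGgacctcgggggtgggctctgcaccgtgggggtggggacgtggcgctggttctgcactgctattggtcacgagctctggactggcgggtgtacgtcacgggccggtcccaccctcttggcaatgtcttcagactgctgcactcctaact
Epha6: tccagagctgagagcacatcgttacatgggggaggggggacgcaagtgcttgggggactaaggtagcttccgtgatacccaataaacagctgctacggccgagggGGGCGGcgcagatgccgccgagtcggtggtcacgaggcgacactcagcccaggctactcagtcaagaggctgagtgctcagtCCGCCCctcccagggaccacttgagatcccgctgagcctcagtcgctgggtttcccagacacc
The windows held 1 GC box in Epha2, 4 in Ephb4, 1 in Epha4 and 2 in Epha6. Some genes had several windows (32851 windows for 27025 genes). For these a motif in any window was counted, and the GC content is that of the window richest in GC. A GC box, searched on both strands, was present in 9 of 11 higher members with a window, 24 of 29 lower members and 9 of 16 members not called, against 35.4% of the 27025 genes in the RefSeq table. The median GC content was 66.8% in higher, 66.0% in lower and 64.8% in uncalled members, against 52.8% in all genes, so higher and lower members shared this feature. All motif counts of members cover tested members only, without Epha1 and Unc5cl. The cyclic AMP response element was present in Epha2 and in none of the other tested members with a window, against 1.77% of all genes. The letters TGANTCA (AP-1) were present in Sema4c, Sema4d and Sema6b and in 7.82% of all genes, and CCGGAAG (ETS) in Unc50, Ephb6 and Plxnb1 and in 7.83% of all genes. CAGCTG (E-box) was present in 0 of 11 higher, 7 of 29 lower and 4 of 16 uncalled members and in 14.7% of all genes, and TATAAA in Slit2 and Efnb2 and in 14.3% of all genes. None of these motifs contains another one. Such matches describe letters in a window and say nothing of binding.

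Per length, the whole set of Eph receptors was lower in glioblastoma, and on average other genes led it. Summed A-type receptors were at 29.2 ± 7.5 FPKM in glioblastomas and 215 ± 30.2 FPKM in brains, and summed B-type receptors at 23.0 ± 5.92 FPKM in glioblastomas and 45.1 ± 10.8 FPKM in brains (SD, n = 5 and 3), with no overlap between groups in either. As shares averaged over libraries, Epha2 held 54.1% of the A-type FPKM in glioblastomas and Epha4 held 45.1% in brains, while Ephb4 held 57.0% of the B-type FPKM in glioblastomas and Ephb6 held 66.4% in brains. Leading genes of the other families are given by the same average. Epha2 and Ephb4 together held 18.1% to 73.3% of all Eph FPKM in single glioblastomas and 0.281% to 0.403% in brains. Glioblastoma 4 held the 18.1%, and there Ephb2 held 32.1%. In that tumour Epha4 (8.57 FPKM) exceeded Epha2 (6.78 FPKM). Ephb4 (3.2 FPKM) stood there below Ephb2 (17.7 FPKM) and Ephb6 (9.5 FPKM). In the order of A-type levels Epha2, at 16.8 ± 8.74 FPKM, led in glioblastomas before Epha4 at 5.54 ± 2.44, Epha7 at 2.75 ± 1.15 and Epha3 at 2.55 ± 1.87 FPKM, and the last 2 lay within one another's spread. In brains Epha4, at 97.3 ± 19.5 FPKM, led before Epha7 at 47.1 ± 13.8, Epha6 at 36.0 ± 5.57 and Epha5 at 20.6 ± 3.60 FPKM, with Epha7 and Epha6 within their spread.

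**Figure D2:**
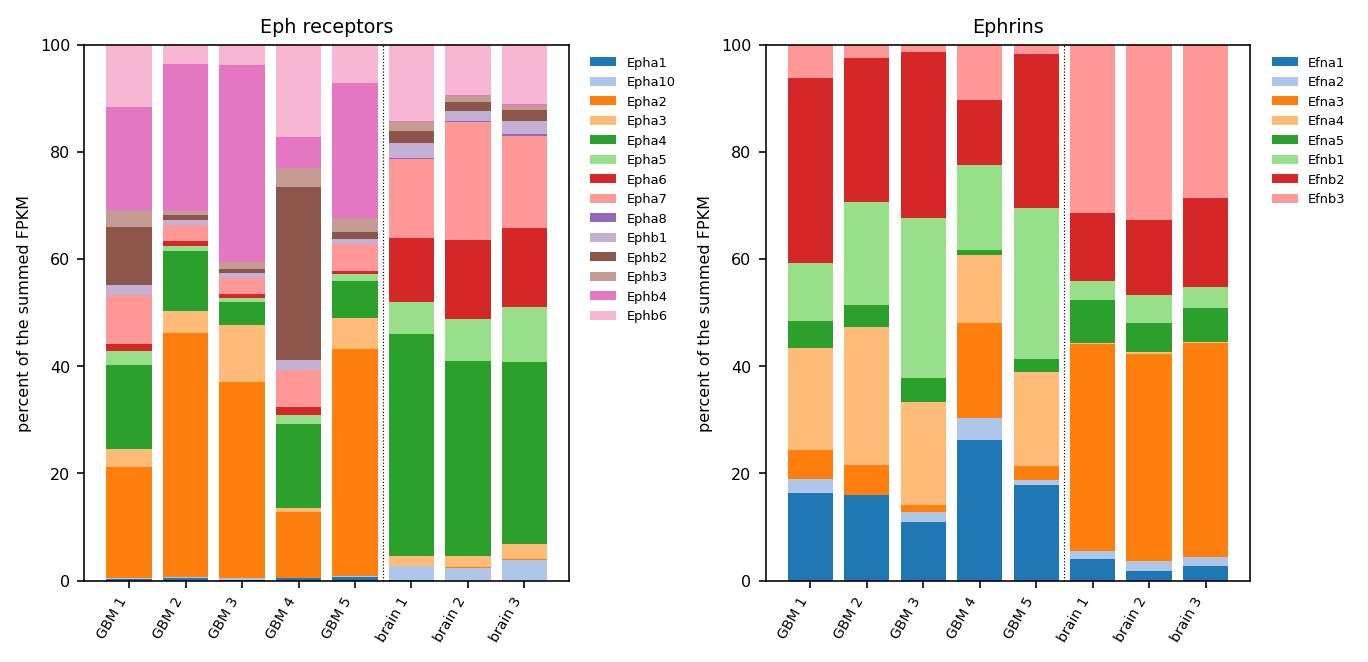
Share of each gene (percent, vertical axis) in the summed FPKM of the 14 Eph receptors (left) and the 8 ephrins (right) in each library, with the 5 glioblastomas (GBM) left of the dotted line and the 3 brains right of it. Epha2 held 12.3% to 45.5% of Eph FPKM in glioblastomas and under 0.1% in brains, and Efna3 held 1.31% to 17.7% of ephrin FPKM in glioblastomas and 38.6% to 40.0% in brains.

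The ephrins, the ligands of these receptors, had 2 higher and 3 lower members of 8. Efna4, a ligand held by a lipid anchor, stood at 7.29, 10.1, 10.1, 4.95 and 12.6 CPM in the glioblastomas, against 0.169, 0.577 and 0.273 CPM in the brains (log2 fold change 4.65 ± 0.52, adjusted p = 6e-05). It passed the filter only through the glioblastomas. Efna1, a ligand of Epha2, stood at 5.74, 5.77, 5.29, 9.32 and 11.8 CPM in the glioblastomas, against 4.06, 1.88 and 2.59 CPM in the brains (log2 fold change 1.43 ± 0.40, adjusted p = 0.0106). Both of these ligands were higher in every glioblastoma than in any brain. Efna3 stood at 1.55, 1.62, 0.504, 5.01 and 1.37 CPM in the glioblastomas, against 31.6, 33.5 and 30.9 CPM in the brains (log2 fold change -3.90 ± 0.55, adjusted p = 0.000241). Efna5, known from the mapping of retinal axons, stood at 6.83, 5.95, 8.44, 1.17 and 6.3 CPM in the glioblastomas, against 32.6, 22.5 and 24 CPM in the brains (log2 fold change -2.22 ± 0.49, adjusted p = 0.00335). Efna2, at 1.13 ± 0.768 CPM in glioblastomas and 2.72 ± 0.394 CPM in brains, was below the brains in every glioblastoma but was not called (log2 fold change -1.19 ± 0.65, adjusted p = 0.13).

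Among the transmembrane ephrins Efnb3, a midline repellent of the spinal cord, was the lower one. It stood at 5.12, 2.17, 1.64, 8.5 and 2.67 CPM in the glioblastomas, against 75.6, 83.4 and 65.2 CPM in the brains (log2 fold change -4.17 ± 0.48, adjusted p = 7.86e-05). Efnb2, the ligand of Ephb4 and a gene of arterial endothelium, stood at 39.2, 31.2, 47.9, 13.8 and 61.1 CPM in the glioblastomas, against 41.8, 49.3 and 51.7 CPM in the brains. The groups overlapped and Efnb2 was not called (log2 fold change -0.30 ± 0.39, 95% interval -1.2 to 0.6, adjusted p = 0.512). Efnb1 was not called either (1.17 ± 0.53, adjusted p = 0.0737), with 9.15 to 44 CPM in glioblastomas and 8.8 to 13.6 CPM in brains. Summed A-type ephrins were at 15.1 ± 2.86 FPKM in glioblastomas and 38.2 ± 1.55 FPKM in brains, and B-type ephrins at 17.3 ± 7.49 FPKM in glioblastomas and 37.7 ± 3.62 FPKM in brains. On average Efna4 (40.7% of the A-type FPKM) and Efnb2 (50.6% of the B-type FPKM) led in glioblastomas. In brains Efna3 (77.5%) and Efnb3 (62.3%) led. In glioblastomas Efna4 (6.075 ± 1.99 FPKM) and Efna1 (5.545 ± 2.02 FPKM) lay within one another's spread, and Efna1 was the higher one in glioblastomas 4 and 5. Efnb2 (8.82 ± 4.0 FPKM) and Efnb1 (7.2 ± 4.54 FPKM) did so too, and Efnb1 was the higher one in glioblastoma 4.

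**Figure D3:**
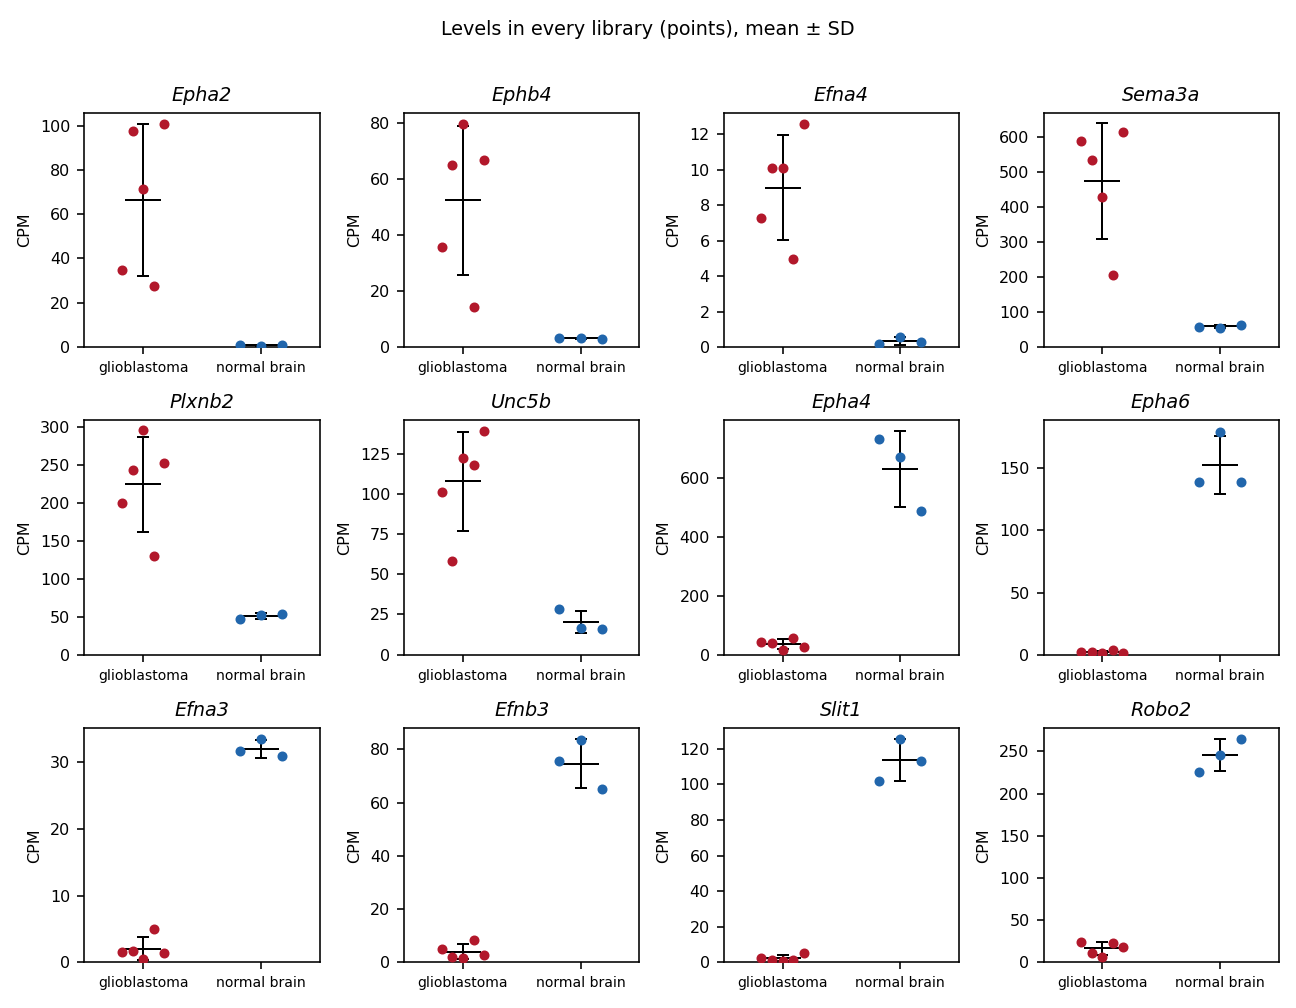
CPM (vertical axis, linear and from 0) of 12 members in each library (points), with the mean and SD of the 5 glioblastomas (red, left) and the 3 brains (blue, right). In each of the 12 genes the groups do not overlap; 6 genes, such as Sema3a with 207 to 614 CPM in glioblastomas and 55.5 to 62.9 CPM in brains, are higher in glioblastoma and 6 are lower.

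The class 3 semaphorins, the secreted ligands, had no member called lower: 1 of 7 was higher and 6 were not called, with fitted log2 fold changes of 0.26 to 3.01. Sema3a, which makes growth cones collapse by way of Nrp1 and A-type plexins, stood at 587, 535, 428, 207 and 614 CPM in the glioblastomas, against 57.9, 55.5 and 62.9 CPM in the brains (log2 fold change 3.01 ± 0.36, adjusted p = 1e-04). Glioblastoma 4 was the lowest of the tumours and above every brain. Of the 3 Sema3a transcripts in the table, NM_001243073 and NM_009152 were both called higher (3.26 ± 0.44 and 2.89 ± 0.50) and the third had 0 fragments in every library, although the split of fragments between them is an estimate by the authors. Sema3e, which binds Plxnd1 without a neuropilin and acts in vessels, stood at 75.7, 142, 88.8, 57.3 and 317 CPM in the glioblastomas, against 127, 106 and 67.9 CPM in the brains, and was not called (0.44 ± 0.55, adjusted p = 0.489). Sema3d stood at 95.4, 13.5, 3.53, 286 and 21 CPM in the glioblastomas, against 12.2, 14.6 and 16.9 CPM in the brains, so that tumours lay above, below and within the range of the brains (2.53 ± 1.28, adjusted p = 0.105). Sema3b stood at 2.65 to 37.7 CPM in glioblastomas and 2.02 to 6.43 CPM in brains. Tumours lay above or within the range of the brains, and Sema3b was not called (2.1 ± 0.96, adjusted p = 0.0785). Sema3c, Sema3f and Sema3g had log2 fold changes of 0.36 ± 0.43, 0.42 ± 0.48 and 0.26 ± 0.37 and overlapping groups. Summed class 3 semaphorins were at 124 ± 26.8 FPKM in glioblastomas and 40.7 ± 4.23 FPKM in brains without overlap. Sema3a held an average of 55.3% in glioblastomas, and Sema3e led in brains with 34.6%. In glioblastoma 4 Sema3d (41.8 FPKM) exceeded Sema3a (29.9 FPKM). In brains Sema3e (14.3 ± 4.23 FPKM) and Sema3c (11.3 ± 1.03 FPKM) lay within one another's spread.

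Of the 13 semaphorins of classes 4 to 7, 3 were higher and 7 lower in glioblastoma. Sema4c, a ligand of Plxnb2, stood at 47.8, 37.2, 41.8, 56.5 and 68.7 CPM in the glioblastomas, against 12.7, 8.95 and 9.82 CPM in the brains (log2 fold change 2.27 ± 0.25, adjusted p = 5.87e-05). Sema4b stood at 35.4, 80.3, 47.9, 41.7 and 68.7 CPM in the glioblastomas, against 13.0, 14.3 and 16.1 CPM in the brains (1.92 ± 0.30, adjusted p = 0.000447). These 2 were higher in every glioblastoma than in any brain, as was Sema6a, with 25 to 33.9 CPM in glioblastomas and 20.8 to 24.8 CPM in brains (0.42 ± 0.16, adjusted p = 0.0348). Sema6a missed the threshold in 8 alternative analyses, among them the fits without glioblastoma 1, glioblastoma 3, brain 1 or brain 2, with adjusted p up to 0.128 over the 8. Sema6b stood at 9.77, 5.23, 6.68, 22.9 and 9.53 CPM in the glioblastomas, against 76.6, 86.1 and 93.9 CPM in the brains (-2.96 ± 0.42, adjusted p = 0.000274). Sema4f stood at 1.71, 0.361, 1.26, 6.11 and 1.37 CPM in the glioblastomas, against 26.9, 40.4 and 39.3 CPM in the brains (-3.92 ± 0.64, adjusted p = 0.000575), and its gene sums were not whole numbers in 5 libraries, so some of its fragments may be shared with another transcript. In both genes glioblastoma 4 was the highest tumour and remained below every brain. The other lower members were Sema4a (-2.70 ± 0.27), Sema6c (-1.90 ± 0.42), Sema4d (-1.45 ± 0.19), Sema4g (-1.14 ± 0.28) and Sema5a (-1.10 ± 0.21).

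Sema7a is anchored by a lipid and binds Plxnc1 and integrins. Of these semaphorins it was on average the most abundant per length in both tissues. It stood at 97.9, 117, 66.9, 143 and 99.1 CPM in the glioblastomas, against 151, 88.7 and 69.2 CPM in the brains, and was not called (0.03 ± 0.30, 95% interval -0.65 to 0.71, adjusted p = 0.94). Sema6d lay above the brains in every glioblastoma, with 108 to 168 CPM in glioblastomas and 93.7 to 107 CPM in brains, but was not called (0.41 ± 0.17, adjusted p = 0.0602). Of its transcripts, NM_199240 had 479, 394, 307, 1272 and 1049 estimated fragments in the glioblastomas, against 0, 39 and 16 in the brains, and was called higher when transcripts were tested singly (4.75 ± 0.99, adjusted p = 0.00477). NM_172537 was also called (adjusted p = 0.0213), with 0 to 166 fragments in glioblastomas and 0 in every brain, while NM_199238, NM_199239 and NM_199241 were not called (-0.45 ± 1.31, -1.88 ± 1.52 and -0.43 ± 1.20). Sema5b stood at 7.45, 0, 0.378, 12.1 and 0.404 CPM in the glioblastomas, against 11.7, 17.0 and 17.7 CPM in the brains, and was not called (-1.88 ± 1.12, adjusted p = 0.162). Glioblastoma 4 lay within the range of the brains, and 3 glioblastomas were near 0. Summed FPKM of classes 4 to 7 overlapped between the groups, at 95.2 ± 14.0 in glioblastomas and 115 ± 5.92 in brains.

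Plexins, the semaphorin receptors, were lower for 5 of 9 and higher for 1. Plxnb2, which binds Sema4c and other class 4 semaphorins, stood at 199, 243, 296, 130.1 and 253 CPM in the glioblastomas, against 46.5, 51.6 and 53.9 CPM in the brains (log2 fold change 2.14 ± 0.27, adjusted p = 0.000116). Every glioblastoma was above every brain. Plxna4, a receptor for Sema3a and Sema6a, stood at 20.2, 39.5, 29.4, 20.3 and 38.8 CPM in the glioblastomas, against 225, 286 and 267 CPM in the brains (-3.13 ± 0.26, adjusted p = 1.19e-05). Plxnc1, the receptor of Sema7a, stood at 15.5, 15.9, 14.8, 21.6 and 12.4 CPM in the glioblastomas, against 82.2, 119 and 148 CPM in the brains (-2.86 ± 0.23, adjusted p = 1.02e-05). Plxna2, the most abundant plexin per length in brain, stood at 106, 72.5, 88.6, 67.1 and 52.5 CPM in the glioblastomas, against 287, 322 and 301 CPM in the brains (-1.97 ± 0.21, adjusted p = 5.03e-05). These 3 plexins were below the brains in all 5 glioblastomas. Plxnb1, a receptor of Sema4d, and Plxnd1, the receptor of Sema3e, were lower at -1.30 ± 0.21 and -1.02 ± 0.19. Plxna1 (-0.47 ± 0.33), Plxna3 (0.06 ± 0.15) and Plxnb3 (-1.48 ± 0.61, adjusted p = 0.0548) were not called. Summed plexins were at 67.5 ± 12.2 FPKM in glioblastomas and 108 ± 8.31 FPKM in brains without overlap, and Plxnb2 held an average of 48.9% in glioblastomas whereas Plxna2 led in brains with 24.6%. The antisense RNA Plxna4os1, which is among the 13 higher members and passed the filter only through the glioblastomas, had 72 fragments in the glioblastomas and 2 in the brains, a ratio of 14.7 (95% interval 4.065 to 121, counting error only), and its reads cannot be told from those of Plxna4 without the strand, which the sources used here do not give.

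The neuropilins, co-receptors of the class 3 semaphorins and of vascular growth factors, had 1 higher member and 1 that was not called. Nrp2, a co-receptor of Sema3f, stood at 169.5, 152, 169.5, 59.5 and 181 CPM in the glioblastomas, against 31.3, 67.7 and 75.8 CPM in the brains (log2 fold change 1.33 ± 0.41, adjusted p = 0.0179). Glioblastoma 4 lay within the range of the brains, and without brain 1, the lowest brain, the gene missed the threshold (1.03, adjusted p = 0.0614). Nrp1, the co-receptor of Sema3a, stood at 122, 120.3, 132, 99.2 and 158 CPM in the glioblastomas, against 114, 150.0 and 132 CPM in the brains. It was not called, with a log2 fold change of -0.07 ± 0.17 and a 95% interval of -0.45 to 0.32.

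All 3 Slits and 3 of 4 Robo receptors were lower in glioblastoma. Slit1, a Slit found mainly in the nervous system, stood at 2.48, 1.44, 0.882, 1.05 and 5.01 CPM in the glioblastomas, against 102, 125 and 113 CPM in the brains (log2 fold change -5.67 ± 0.51, adjusted p = 1.94e-05). Slit3 stood at 3.1, 1.08, 1.01, 1.34 and 2.75 CPM in the glioblastomas, against 38.9, 55.3 and 49.1 CPM in the brains (-4.67 ± 0.38, adjusted p = 1.04e-05). Slit2 stood at 39.4, 19.1, 48.1, 11.4 and 28 CPM in the glioblastomas, against 70.9, 67.8 and 73.3 CPM in the brains (-1.28 ± 0.40, adjusted p = 0.0181). All glioblastomas were below all brains for each Slit, and Slit2 missed the threshold without brain 3 (adjusted p = 0.0511). Robo2 stood at 23.7, 10.8, 6.55, 23.5 and 17.9 CPM in the glioblastomas, against 226, 246 and 264 CPM in the brains (-3.89 ± 0.38, adjusted p = 3.27e-05). Robo1 stood at 20.2, 8.84, 18.3, 20.1 and 47.8 CPM in the glioblastomas, against 77.8, 87.6 and 104 CPM in the brains (-1.95 ± 0.43, adjusted p = 0.00335). Robo3, which lets commissural axons cross the midline, stood at 0.31, 0, 0.252, 0.175 and 0.404 CPM in the glioblastomas, against 9.13, 5.48 and 5.59 CPM in the brains (-4.72 ± 0.50, adjusted p = 4.54e-05), and passed the filter only through the brains. All 3 lay below the brains in every glioblastoma. Robo4, the Robo of endothelium, averaged 4.89 ± 2.05 CPM in glioblastomas and 2.35 ± 0.955 CPM in brains and was not called (1.07 ± 0.45, adjusted p = 0.0587). Summed Slits were at 4.30 ± 1.90 FPKM in glioblastomas and 39.4 ± 3.81 FPKM in brains, and summed Robo receptors at 6.26 ± 2.43 FPKM in glioblastomas and 43.3 ± 3.56 FPKM in brains. Slit2 held an average of 80.6% of the Slit FPKM in glioblastomas, and Slit1 held 54.2% in brains.

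Of the 4 Unc5 netrin receptors, which carry a death domain, 3 were lower and Unc5b was higher. Unc5b, known from the tip cells of growing vessels and, in human cells, as a target of p53, stood at 101, 58.1, 122, 118 and 139 CPM in the glioblastomas, against 28.2, 16.6 and 16.1 CPM in the brains (log2 fold change 2.41 ± 0.33, adjusted p = 0.000225). Unc5a stood at 3.41, 1.08, 1.76, 1.57 and 1.7 CPM in the glioblastomas, against 50.4, 54.1 and 51.8 CPM in the brains (-4.78 ± 0.30, adjusted p = 2.8e-06). Unc5c stood at 14.4, 5.05, 5.54, 22.3 and 9.53 CPM in the glioblastomas, against 130.3, 136 and 139 CPM in the brains (-3.55 ± 0.45, adjusted p = 0.000133). For each of these genes the groups were apart, and the same held for Unc5d (-2.25 ± 0.39). Summed Unc5 receptors were at 21.7 ± 4.94 FPKM in glioblastomas and 41.2 ± 2.61 FPKM in brains, and Unc5b held an average of 81.2% in glioblastomas. Unc50, a Golgi protein that shares only its name with this family, stood at 73.4, 80.1, 62.4, 83.1 and 63.2 CPM in the glioblastomas, against 55.3, 48.2 and 51.8 CPM in the brains (0.48 ± 0.14, adjusted p = 0.0141), and missed the threshold without brain 2 (adjusted p = 0.0653). Unc5cl had 2 fragments in the glioblastomas and 8 in the brains and was not tested.

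Of the known ligand and receptor partners, some were called in the same direction and others were not. Epha2 and its ligand Efna1 were both higher, and Ephb4 was higher while its ligand Efnb2 was not called. Sema3a was higher while Nrp1 was not called. Of the A-type plexins, Plxna2 and Plxna4 were lower and Plxna1 and Plxna3 were not called. Sema6a was higher while its receptor Plxna4 was lower, and Nrp2 was higher while Sema3f was not called. Plxnb2 and its ligand Sema4c were both higher, and Plxnb1 and its ligand Sema4d were both lower. Plxnc1 was lower while Sema7a was not called, and Plxnd1 was lower while Sema3e was not called. The 3 Slits and the receptors Robo1, Robo2 and Robo3 were lower, while Robo4 was not called (1.07 ± 0.45). Of the members tied above to vessels, Ephb4, Nrp2 and Unc5b were higher and Plxnd1 was lower. Efnb2, Sema3e, Nrp1 and Robo4 were not called, beside endothelial markers of which 5 of 6 were higher. The part of vessel cells in these values was not tested.

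Among 51 further genes of these pathways (netrins and their receptors, cofactors and intracellular effectors), 50 were tested, 14 were higher, 26 lower and 10 not called, beside 37.1% higher and 33.9% lower over all genes. The median log2 fold change was -0.71 for these genes and 0.06 for all genes. The netrin Ntn1 was higher (1.66 ± 0.51) and so was Ntn4 (2.99 ± 0.44), whereas the attractive netrin receptor Dcc averaged 10.8 CPM in glioblastomas and 63.2 CPM in brains (-2.53 ± 0.52) and the receptor Neo1 was not called (-0.15 ± 0.26). Of the collapsin response mediator proteins, which relay Sema3a signals to microtubules, Dpysl2 was lower (-2.75 ± 0.15), as were Dpysl5 (-3.91 ± 0.44), Dpysl4 (-2.35 ± 0.63) and Crmp1 (-1.33 ± 0.28), while Dpysl3 was higher (2.29 ± 0.22). Among guanine nucleotide exchange factors, Kalrn was at 29.8 CPM in glioblastomas and 964.8 CPM in brains (-5.02 ± 0.26), Ngef, which acts downstream of Epha4, was lower (-2.87 ± 0.39), and Vav2 (1.36 ± 0.20) and Vav3 (1.20 ± 0.26) were higher. Rras, a GTPase that plexins switch off, was higher (2.99 ± 0.26), and the cell adhesion molecule L1cam was lower (-4.12 ± 0.31).

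A further 9 members were not called by edgeR with all 8 libraries but were called by it when 1 library was left out. Most of these calls turned on the method as well. With all 8 libraries DESeq2 called Efnb1, Sema3b, Sema6d, Plxnb3 and Robo4 (adjusted p = 0.037, 0.0206, 0.0426, 0.0267 and 0.0422), and limma on log2(FPKM + 1) called Epha3, Efna2, Sema5b and Plxnb3 (adjusted p = 0.0396, 0.0237, 0.0172 and 0.0182). Without glioblastoma 4, these passed the threshold: Efna2 (log2 fold change -1.55, adjusted p = 0.0418) and Plxnb3 (-2.07, 0.00385) and Sema5b (-2.97, 0.024) as lower, and Robo4 (1.25, 0.0183) as higher. Efnb1 passed as higher without glioblastoma 4 (1.33, adjusted p = 0.0371) or glioblastoma 1 (1.38, 0.0283), and Robo4 also without brain 1 (1.41, 0.047). Without glioblastoma 3, Epha3 passed as lower (-1.63, adjusted p = 0.0366) and Sema3b (2.37, 0.0375) and Sema3d (2.84, 0.0416) as higher. Sema3b passed also without glioblastoma 2 (2.36, adjusted p = 0.0476), and Sema6d passed as higher without glioblastoma 1 (0.48, 0.0436) or glioblastoma 2 (0.47, 0.0389). Ephb2 stayed uncalled in each of these fits, at -1.80 without glioblastoma 4 (adjusted p = 0.0548).

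The glioblastomas differed among themselves more than the brains did. The median SD of log2(CPM + 1) over the tested members was 0.6 in glioblastomas and 0.21 in brains, and over all genes it was 0.34 in glioblastomas and 0.14 in brains. The SD was larger in glioblastomas for 57 of 65 members and for 85.6% of all genes. Among the glioblastomas 48 tested members ranged at least 2-fold and 5 at least 10-fold, without 4 members that had 0 fragments in a tumour, such as Sema5b. The ratio of the highest to the lowest tumour was 80.9 for Sema3d, 49.6 for Ephb2, 16.9 for Sema4f, 14.3 for Sema3b and 12.5 for Epha3. That of Sema4f rests on only 2 fragments in glioblastoma 2, its lowest tumour. Glioblastomas 1 and 4 were the 2 highest tumours for 19 members (29.2%), against 22.1% of all genes, and glioblastoma 4 was the lowest tumour for 18 members (27.7%), among them Epha2, Ephb4, Efna4, Sema3a, Plxnb2 and Nrp2, against 36.1% of all genes. Summed oligodendrocyte precursor markers (6 genes) lay at 1004, 148, 259, 1842 and 391 CPM in the glioblastomas, against 253, 238 and 246 CPM in the brains, also highest in glioblastomas 4 and 1. Of these markers 1 was higher, 1 lower and 4 not called. Pdgfra, the higher one, made up most of the sum in every glioblastoma, with 790 CPM in glioblastoma 1 and 1338 CPM in glioblastoma 4. Gpr17 was the lower one (-2.54 ± 0.87, adjusted p = 0.0276) and lay below the brains in every glioblastoma. The macrophage and monocyte markers were lowest in glioblastomas 1 and 4, at 905 and 893 CPM, against 2024 to 2365 CPM in the other 3. The part of either in these members was not tested. Without glioblastomas 1 and 4, a choice made after the data were seen, 16 members were higher and 37 lower, against 13 and 33 with them. The shares over all 14386 genes tested in that fit were 39.5% higher and 39.1% lower.

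**Figure D4:**
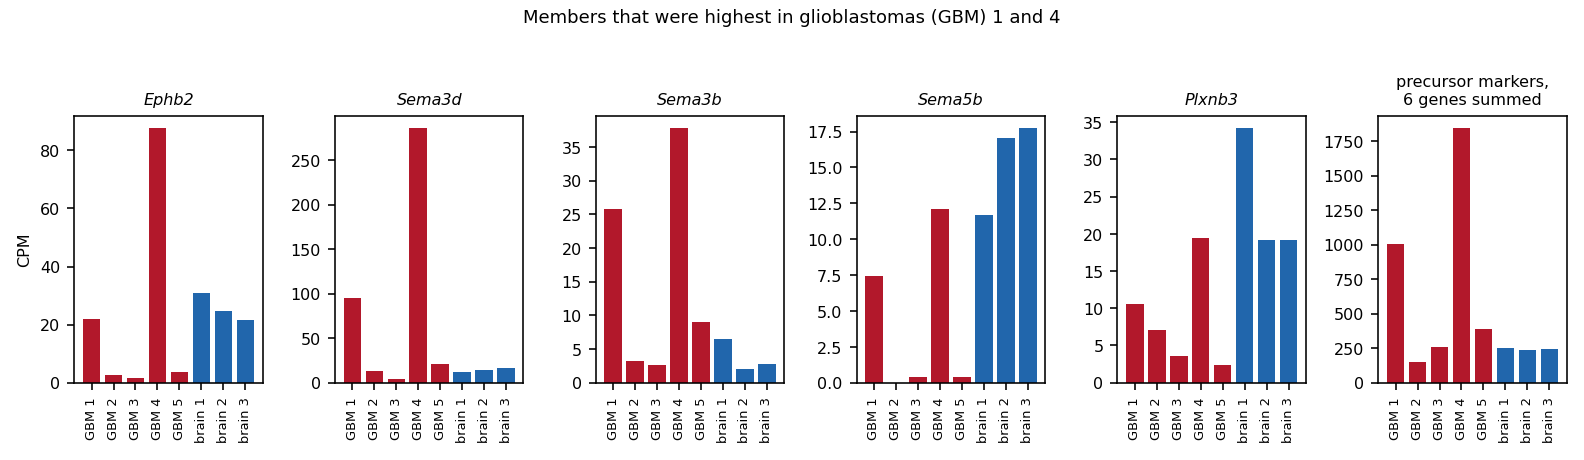
CPM (vertical axes, each from 0 with its own scale) of Ephb2, Sema3d, Sema3b, Sema5b and Plxnb3, and the summed CPM of 6 oligodendrocyte precursor markers, in the 5 glioblastomas (GBM, red) and the 3 brains (blue). Glioblastomas 1 and 4 are the highest tumours in all 6 panels, as in Ephb2 with 21.9 and 87.6 CPM against at most 3.64 CPM in the other 3. In every glioblastoma Pdgfra makes up most of the marker sum, as with 1338 of 1842 CPM in glioblastoma 4.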

How the data were processed

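RNA from 5 mouse glioblastomas and 3 normal brains was sequenced from TruSeq libraries, per the labels' protocols. STAR 2.3.0e, Cuffdiff 2.1.1 and the build mm9 are named in the submitters' processing notes, without settings; the sources used here give neither the annotation release nor whether counting used strand. The authors deposited estimated counts of fragments per RefSeq transcript and library, and FPKM values, per the file headers. The 30967 transcripts were summed by symbol (RefSeq for 30474, GENCODE for 178; the 315 others held 0.507% of fragments), which gave 23523 features. Estimated counts were rounded to whole numbers. A sum that was not whole within 0.01 marked 608 genes with shared fragments, among the members only Sema4f.

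The main test was edgeR 4.0.16 (R 4.3.3) with TMM factors, its default filter and the robust quasi-likelihood F test, adjusted by Benjamini-Hochberg over 14641 genes at 0.05. Standard errors came from the F statistic; 95% intervals of ratios of fragments are exact and, like the floor of 3 fragments, cover counting error only. Alternatives used DESeq2 1.42.0, limma 3.58.1 on log2 FPKM (pseudocounts 1 and 0.1), other scaling factors and filters, single transcripts and left-out libraries. Tests were tried on simulated data. RefSeq windows of 250 bases matched 58 of 67 members.

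Values in every library are given for up to 2 called members with the largest change in each direction per family with at least 5 CPM, and for the most abundant by FPKM. Ephb2, Sema3d and Sema5b were added after their values were seen. Members and lists were chosen with earlier results of these data known.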

Additional observations from a re-analysis of the deposited data

Results flagged for a closer look

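In 5 of 65 tested members 1 glioblastoma stood apart from the other 4 by Dixon's criterion for a group of 5 samples. Chance meets this criterion in about 1 in 20 groups, and it was not applied to all genes. In each of the 5 members that library was glioblastoma 4. Over all genes tested, glioblastoma 4 was the highest tumour for 32.4% and the lowest for 36.1%. It was the highest tumour for Ephb2 at 87.6 CPM (next 21.9 CPM), for Efna3 at 5.01 CPM (next 1.62 CPM), for Sema4f at 6.11 CPM (next 1.71 CPM) and for Sema6b at 22.9 CPM (next 9.77 CPM). It was the lowest tumour for Nrp2, at 59.5 CPM, where the next one stood at 152 CPM. In glioblastoma 4, Efna3, Sema4f and Sema6b lay below every brain, and Ephb2 was above the highest brain (31.0 CPM) in that library.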

How the results depend on the processing

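Over all other settings and left-out libraries, 11 to 17 members were higher and 32 to 37 lower, against 13 and 33. Leaving out 1 library gave 11 to 14 higher and 32 to 36 lower members. Upper quartile factors and library size alone moved the median log2 fold change of all genes to 0.18 and 0.2, from 0.06.

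Counts of higher members by family moved as follows. Ephrins B had 1 instead of 0 with library size alone, DESeq2, or glioblastomas 1 and 4 left out. Class 3 semaphorins had 2 with DESeq2 and 3 without glioblastomas 1 and 4, instead of 1. The plexin symbols had 1 instead of 2 with a filter of 5 CPM in 3 samples or without glioblastomas 1 and 4, where the antisense RNA Plxna4os1 was not tested. Robo receptors had 1 instead of 0 with upper quartile factors, library size alone, DESeq2, brain 1 and glioblastoma 4 left out, or glioblastomas 1 and 4 left out. With 1 library left out, the counts ranged from 0 to 1 for ephrins B, 1 to 3 for class 3 semaphorins, 1 to 2 for plexins, 0 to 1 for neuropilins and Robo receptors and 1 to 2 for the Unc5 symbols. The moves of the plexin and Unc5 symbols were those of Plxna4os1 (not tested) and Unc50, while 1 plexin and 1 netrin receptor were higher throughout. The cause of the other moves was not tested.

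Signs turned only in members that were not called with all libraries. Ephb2 was at 0.04 with upper quartile factors, 0.10 with library size alone and -1.80 to 0.19 without single libraries. Nrp1 was at 0.05 and 0.06 under the same scalings and at -0.16 to 0.03 without single libraries. Without glioblastomas 1 and 4, Sema3d was at -0.19, Sema7a at -0.12 and Nrp1 at 0.05, and Ephb2 was called lower at -3.24 (adjusted p = 8.23e-06). Without brain 1 and glioblastoma 4, Plxna3 was at -0.05. Without single libraries, Plxna3 was at -0.04 to 0.13, Sema3e at -0.14 to 0.65 and Sema7a at -0.19 to 0.41. In the fit of single transcripts, the most abundant transcripts of Ephb1 (-3.41, adjusted p = 0.0611), Ephb3 (-1.32, 0.0793), Efna5 (-2.74, 0.131) and Sema4d (-1.86, 0.229) were not called. Ephb3 has 1 transcript, so its fragments were those of the gene. The split between transcripts is an estimate. In glioblastoma 2 every fragment of Ephb1, Efna5 and Sema4d was assigned to the other transcript of the gene.

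No paired analysis was possible because the labels pair no tumour with a brain. The replicate numbers used here are an order within a group. Low-count members (Epha8, Plxna4os1, Robo3, Efna4, Epha2 in one tissue) are limited by depth.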
